A study of Homo sapiens with 12 samples.

Results

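The late interval of an actinomycin D time course, from 2 h to 4 h after the drug was added, was described by comparing the 3 libraries taken at 4 h with the 3 taken at 2 h, paired by replicate number. These are 6 of the 12 RNA-seq libraries of the series, and 12775 of the 26334 genes in the deposited table had enough counts to be tested. All libraries came from shA673-1c, Ewing sarcoma cells of the A673 line in which doxycycline switches on a short hairpin RNA that targets EWS::FLI1, the fusion oncogene of this tumour. Doxycycline was given to every group, the 0 h libraries included, for 4 days at 1 µg per ml. Actinomycin D was then present at 5 µM, and polyadenylated RNA was taken at 0, 1, 2 and 4 h from 3 biological replicates per time. The series thus holds 1 cell line in 1 state of hairpin induction, and cells not given doxycycline were not analysed here.

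Actinomycin D binds DNA and stops RNA polymerases, so that the level of each mRNA then follows its decay. Messengers of inducible regulators are known for rapid decay, started by shortening of the poly(A) tail and often directed by AU-rich elements in the 3′ UTR, whereas messengers of ribosomal, metabolic and matrix proteins are known to persist. The libraries measure shares of the remaining mRNA: the values are CPM, counts over the TMM-scaled library total times a fixed constant, and an mRNA lost more slowly than the average appears to rise.

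The sequences shown first are AU-rich heptamers from 3′ UTRs of mRNAs with the largest falls, because this class of element is the known mark of short-lived messengers. Among the 15 named genes with the largest falls, chosen by a rule given with the processing, 14 had a matched GENCODE release 29 transcript. Of these, 9 had TATTTAT anywhere in the 3′ UTR, against 33.2% of the 11665 transcripts matched by symbol. These shares are not matched for 3′ UTR length, which was 552 to 4672 bases in the 9 genes. The sites of the 4 largest of those falls, read 5′ to 3′ on the coding strand of GRCh38 with the heptamer in capitals, lay at chr19:40421749-40421778, chr5:58454065-58454094, chr6:42744603-42744632 and chr12:92140769-92140798, all on the minus strand.
SERTAD1: gagtctacctgTATTTATtgaggagcgaag
PLK2: aataaacttttTATTTATtacagcccaaag
TBCC: cgccagggcttTATTTATttatttttacca
BTG1: aatagatttctTATTTATctgaaggtatac
Coding sequence is shown next because the G and C content of transcripts varied with the changes described below. Coding bases 301 to 360 follow for 4 of the genes with the largest changes at 100 CPM or more, SLC38A2 and RND3, which fell and have GC-poor transcripts, and CRIP2 and CHPF, which rose and have GC-rich ones. G or C at the third codon position is in capitals.
SLC38A2: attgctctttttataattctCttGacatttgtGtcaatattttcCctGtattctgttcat
RND3: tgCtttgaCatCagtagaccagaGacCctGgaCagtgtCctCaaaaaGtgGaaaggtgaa
CRIP2: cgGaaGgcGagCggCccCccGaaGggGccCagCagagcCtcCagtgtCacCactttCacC
CHPF: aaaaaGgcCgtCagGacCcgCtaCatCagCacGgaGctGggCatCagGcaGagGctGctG
Of the 20 such positions in each stretch, 5 were G or C in SLC38A2 and 11 in RND3, against 17 in CRIP2 and 19 in CHPF. These 4 stretches do not stand for all large changes. Among the other named falls at 100 CPM or more, CYR61 had 11, CDC42EP3 13 and PHLDA1 18. AGRN and LAMA5, which rose, had 15 and 16. Over 4 equal groups by GC at this codon position, poorest to richest, 105, 121, 85 and 110 genes were called over 2-fold lower.

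The mRNA pool went on changing between 2 h and 4 h, and the falls were larger than the rises. At an edgeR adjusted p of 0.05, 2851 genes were lower at 4 h (22.3% of those tested) and 2820 were higher (22.1%). The median fold of the called genes was 1.40 among those lower and 1.23 among those higher. Past 2-fold, 445 genes were called lower (3.48%) and 33 higher (0.258%). The 3 libraries of both times did not overlap for 2541 genes that were lower (19.9%) and 2315 that were higher (18.1%). Over all tested genes the 5th percentile of the log2 change was -0.87, the median 0.01 and the 95th percentile 0.47.

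The balance of rises and falls depended on how the libraries were scaled. Scaling to the total counts moved the median of all genes by -0.09 on the log2 scale and gave 3982 lower (31.2%) and 1674 higher (13.1%). Scaling to the summed counts of cytosolic ribosomal protein mRNAs, which sets those mRNAs as the constant reference, moved it by -0.23 and gave 6064 lower (47.5%) and 574 higher (4.49%). Each gene's log2 change shifts by about that amount on the ribosomal scale, so rises are relative to the average mRNA of the library. Without the replicate number as a block the counts were 1817 and 1302, all of them among the blocked calls. Without 2 h replicate 1, 55 genes were over 2-fold higher in place of 33. The plot of change against level shows called falls of over 2-fold up to SLC38A2, at a mean of 716 CPM at 2 h. The largest named fall at 100 CPM or more was -1.88 in CYR61, against -2.47 in SERTAD1 at a mean of 6.21 CPM. Over 100 CPM rises outnumbered falls, with 47.8% of 2173 genes higher and 15.6% lower.

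**Figure D1:**
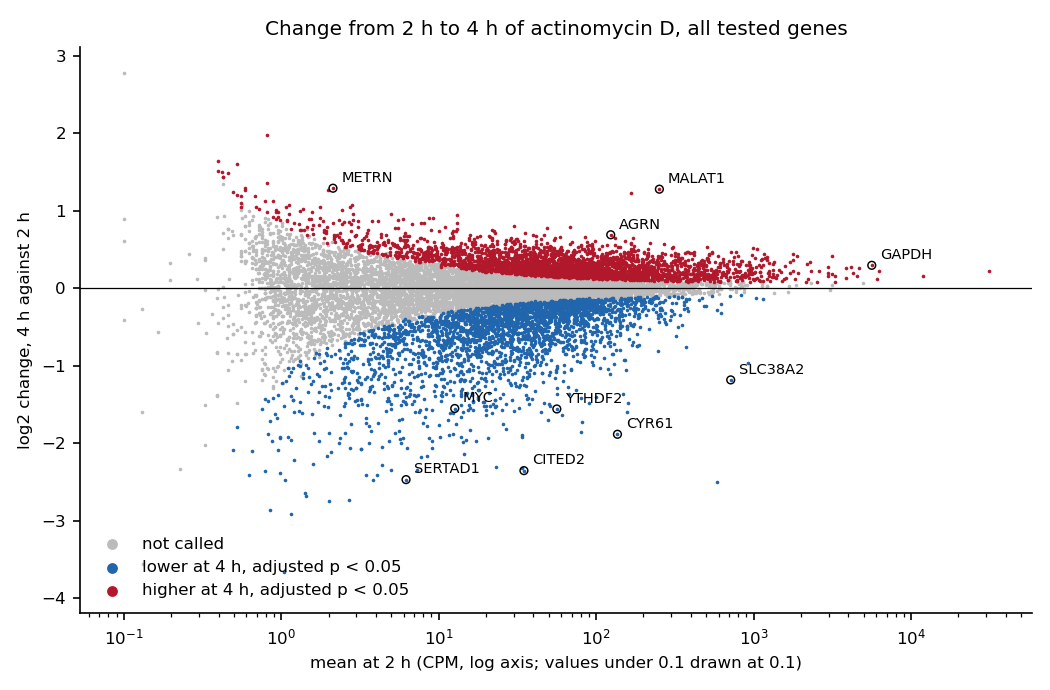
Each point is 1 of 12775 tested genes, with its mean CPM at 2 h on a log axis and its log2 change from 2 h to 4 h on the vertical axis, blue where it was called lower and red where called higher at an edgeR adjusted p of 0.05. The fall of CYR61 (log2 change -1.88, 137 CPM at 2 h) and the rises of MALAT1 (1.28) and AGRN (0.69) are among those labelled.

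Among genes at 5 CPM or more at 2 h, the largest falls named here ran from log2 -2.47 in SERTAD1 to -1.995 in PPM1D. SERTAD1, a cofactor of E2F transcription, went from 7.05, 5.97 and 5.60 CPM at 2 h to 1.47, 0.837 and 1.06 CPM at 4 h in replicates 1, 2 and 3 (log2 change -2.47 with an SE of 0.27, a 5.53-fold fall). CITED2, a partner of the coactivators CBP and p300, went from 38.1, 33.1 and 33.2 to 7.48, 6.90 and 6.15 CPM (-2.35, SE 0.12). The libraries of both times lay well apart in both genes and the 4 h values were alike among replicates. DUSP5, a nuclear phosphatase of ERK, differed between replicates in level but fell in each, from 44.7, 35.2 and 22.3 to 8.95, 7.22 and 4.35 CPM (-2.32, SE 0.10). PLK2, a stress-inducible polo-like kinase, went from 23.8, 20.4 and 25.1 to 4.31, 4.92 and 4.77 CPM (-2.31, SE 0.16). BTG1, an antiproliferative protein that binds the CCR4-NOT deadenylase, went from 14.6, 13.96 and 14.9 to 4.42, 2.82 and 2.65 CPM (-2.14, SE 0.15). In these 3 genes the highest 4 h library was below the lowest 2 h library, which the rule for naming the largest falls required. The other largest falls were those of C14orf169, a ribosomal oxygenase (-2.34), TBCC, a tubulin folding cofactor (-2.18), BAMBI, a decoy receptor of TGF-beta signalling (-2.16), RGS2, a regulator of G protein signalling (-2.06), and PPM1D, a phosphatase of the p53 response (-1.995). All 10 falls passed the edgeR test, a condition for being named, with adjusted p between 1.03e-16 and 7.81e-08. They were also called under each scaling, with DESeq2 and without any library at 2 h or 4 h.

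Among mRNAs at 100 CPM or more at 2 h, CYR61, a secreted matricellular protein, went from 138, 145 and 128 to 36.0, 32.0 and 42.8 CPM (log2 change -1.88 with an SE of 0.10, a 3.68-fold fall, and edgeR adjusted p = 2.41e-15). RND3, an atypical GTPase that loosens actin fibres, went from 164, 162 and 143 to 53.1, 51.2 and 50.9 CPM (-1.59, SE 0.07). CDC42EP3, an effector of the GTPase CDC42, went from 167, 158 and 154 to 57.2, 56.0 and 59.0 CPM (-1.47, SE 0.06). In all 3 genes the libraries of each time lay close together and those of both times far apart. SLC38A2, an amino acid transporter and the most abundant mRNA at 2 h with a called fall of over 2-fold, went from 679, 686 and 783 to 299.6, 296 and 352 CPM (-1.18, SE 0.04). PHLDA1, an inducible pleckstrin homology protein, had a log2 change of -1.37 (SE 0.06).

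The largest rises were those of METRN, an mRNA of low level, and of the nuclear long noncoding RNAs MALAT1 and NEAT1. MALAT1, a noncoding RNA of nuclear speckles, went from 208, 285 and 264 CPM at 2 h to 492, 640.4 and 709.5 CPM at 4 h (log2 change 1.28 with an SE of 0.07, a 2.43-fold rise, and edgeR adjusted p = 5.27e-15). NEAT1, the scaffold of paraspeckles, went from 177, 154 and 171 to 394, 347 and 435 CPM (1.23, SE 0.09). Both rose in each replicate, which the naming rule required, with libraries of both times far apart. Both calls held under every scaling. METRN, a secreted neurotrophic protein, went from 2.94, 1.72 and 1.74 to 5.33, 4.71 and 5.73 CPM (1.29, SE 0.23, edgeR adjusted p = 3.15e-05). The immune adaptor LIME1 (1.08), DGCR6 (1.06), the death domain protein PIDD1 (0.96), the death receptor TNFRSF25 (0.96), MZT2A of the gamma-tubulin ring complex (0.90), BRICD5 (0.90) and AMH, anti-Müllerian hormone (0.88), also rose, from means of 2.76 to 9.26 CPM at 2 h. The MZT2A call ended without the replicate block (edgeR adjusted p = 0.0555).

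Of named protein-coding mRNAs at 100 CPM or more at 2 h, the largest rises were those of AGRN, LAMA5, CHPF and CRIP2. AGRN, the heparan sulfate proteoglycan agrin, went from 129, 124.9 and 118 to 195, 192 and 215 CPM (log2 change 0.69 with an SE of 0.08, a 1.62-fold rise, and edgeR adjusted p = 1.49e-08). LAMA5, a laminin chain, went from 161, 164 and 186 to 248, 253 and 304 CPM (0.65, SE 0.07). CHPF, which polymerises chondroitin, rose by 0.64 (SE 0.08) and CRIP2, a LIM domain protein, by 0.61 (SE 0.07). In all 4 the lowest 4 h library was above the highest 2 h library, which the naming rule required. The plot of levels in each library shows the 10 largest falls named and the 12 largest rises, all chosen to have no overlap.

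**Figure D2:**
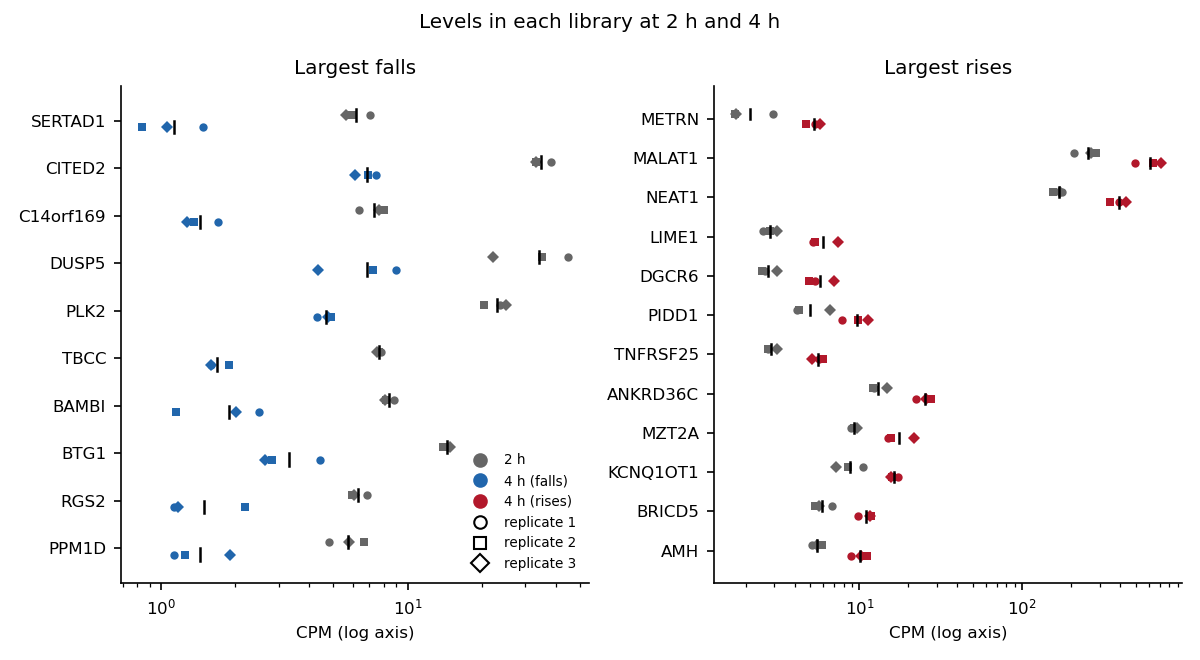
CPM on a log axis for the 10 named genes with the largest falls (left) and the 12 with the largest rises (right), with 1 symbol per replicate, grey at 2 h and coloured at 4 h, and a black bar at each mean of 3 libraries. No gene shown has a 4 h library within the range of its 2 h libraries, from SERTAD1 (6.21 to 1.12 CPM on average) to AMH (5.49 to 10.1 CPM).

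Rises and falls were unevenly spread over the GC content of transcripts. Across 11665 genes, Spearman's correlation between the log2 change and transcript GC was 0.440, and within replicates 1, 2 and 3 it was 0.366, 0.356 and 0.449. Genes are not independent replicates, so this is a description. Of 4 groups of equal size by GC, the GC-richest held transcripts of 57.2% to 74.6%, in which 48.4% were higher at 4 h and 9.36% lower. In the GC-poorest group, of 31.5% to 42.4%, 3.53% were higher and 33.9% lower. Of 13 named rises with a matched transcript, 12 were in the GC-richest group, among them AMH (73.1% GC) and CRIP2 (71.2%). Of 14 named falls with a matched transcript, only 4 were in the GC-poorest group, and 0 were in the GC-richest. The same relation also moved between libraries that are 1 h apart: from 0 h to 1 h the correlation was 0.0361, 0.412 and 0.159 in replicates 1, 2 and 3, and from 1 h to 2 h it was 0.0990, -0.405 and -0.333. The mean GC of the libraries, weighted by counts, was 49.7%, 49.4% and 49.5% at 2 h and 50.3%, 50.04% and 50.3% at 4 h, against 49.6% to 49.98% over the 0 h and 1 h libraries. The 2 h libraries of replicates 2 and 3 thus had the lowest values of all 12, and the part of this difference in the changes reported was not tested.

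An offset smoothed over GC in each library, added after the data were seen, levels the relation by construction. With it, 2616 genes were lower and 2732 higher among the 11665, and of the 2706 and 2663 calls among those genes 2185 and 1695 remained. AGRN, LAMA5, CHPF and CRIP2 were still called higher, with log2 changes of 0.32, 0.30, 0.27 and 0.16, each smaller than on the TMM scale. CITED2 stayed at -2.32. MALAT1 and NEAT1 had no matched coding transcript and no such value.

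**Figure D3:**
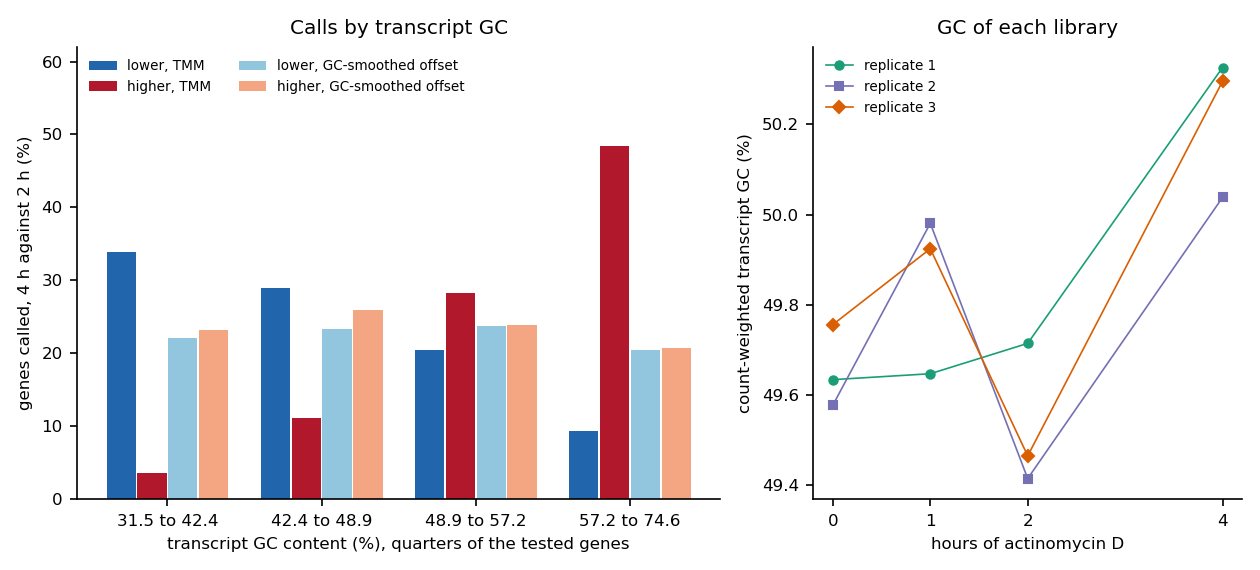
Left, percent of genes called lower or higher at 4 h against 2 h in each of 4 equal groups by transcript GC content, with TMM scaling (dark bars) and with the GC-smoothed offset (pale bars); right, count-weighted transcript GC of each of the 12 libraries by hour of actinomycin D, joined within replicates. Calls of higher genes run from 3.53% in the GC-poorest group to 48.4% in the GC-richest, the pale bars are level, and the 4 h libraries have the highest GC in each replicate.

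The density of exon junctions, counted over the transcript and divided by coding length, by contrast varied with the falls in both intervals. Of 4 equal groups by exon junctions per kb of coding sequence, the junction-poorest had 41.8% of genes lower and 9.94% higher, and the junction-richest 10.6% lower and 30% higher. Spearman's correlation with junction density was 0.322 in the late interval, 0.316, 0.305 and 0.262 in its replicates 1, 2 and 3, and 0.455 in the early interval, whereas that with GC was -0.0897 in the early interval. The order held inside each GC group: in the GC-poorest 54.1% of the junction-poorest genes were lower against 18.6% of the junction-richest, and in the GC-richest 22.6% against 1.85%. Of the 14 named falls with a transcript, 10 were in the junction-poorest group. Long 3′ UTRs went with falls as well, with 33.7% lower in the group of 2422 bases or more and 13.9% in the group up to 424 bases.

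Over all genes, the AU-rich heptamer shown above went with a small difference in the share of falls. In the first 500 bases of the 3′ UTR, searched on the coding strand in the 8267 genes with 3′ UTRs that long, TATTTAT was present in 13.4%. This window differs from the whole 3′ UTR searched for the named falls. Of the sites shown above, only that of TBCC, at base 412 after the stop codon, lies within it. Of the genes with TATTTAT in the window 28.8% were lower at 4 h, against 26.8% of the genes without it. The reverse complement ATAAATA, present in 7.71% of the same windows, gave 31.2% against 26.7%. In the GC-poorest group 33.1% of genes with TATTTAT and 35.4% of those without were lower. The share of lower genes with the heptamer was thus no further from its counterpart than that with the reverse complement.

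Immediate early genes and developmental regulators had the lowest medians in the plot of gene lists, which orders the lists by their median change. For comparison, 22.3% of all tested genes were lower and 22.1% higher, and 47.5% and 4.49% on the ribosomal scale. Of 50 immediate early and inducible genes tested, 36 were lower and 0 higher, with a list median of -0.90 against 0.01 over all genes (40 lower and 0 higher on the ribosomal scale). Of 73 developmental and inducible transcription regulators, 49 were lower and 1 higher (median -0.72; 61 lower and 0 higher on the ribosomal scale). SOX9, a regulator of cartilage and stem cells, went from 37.4, 37.7 and 37.6 to 10.99, 13.7 and 15.2 CPM (-1.50, SE 0.11), and SOX11, of neural and mesenchymal progenitors, from 37.4, 34.2 and 32.2 to 14.4, 13.4 and 16.0 CPM (-1.24, SE 0.09). Their levels at 2 h were close among replicates and well above those at 4 h. Of 28 NF-kappa-B and cytokine feedback genes, 11 were lower (39.3%) and 4 higher (14.3%), and 7 and 2 without the replicate block. On the ribosomal scale 17 were lower and 0 higher. IRF2BP2, a corepressor of IRF2, was the clearest of them, from 17.8, 19.02 and 21.6 to 7.14, 5.54 and 8.59 CPM (-1.46, SE 0.12).

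Zinc finger genes had a larger share of members lower and a smaller share higher than the 22.3% and 22.1% of all tested genes. On the ribosomal scale the shares over all tested genes were 47.5% and 4.49%. Of 393 C2H2 genes named ZNF, most of them DNA-binding repressors, 132 were lower (33.6%) and 12 higher, with a median of -0.29 (224 lower and 2 higher on the ribosomal scale). The higher count was 7 without replicate 2 or replicate 3, and 6 without the block. ZNF148 went from 30.4, 33.0 and 33.4 to 9.29, 10.9 and 12.9 CPM (-1.54, SE 0.10), ZNF24 had a change of -0.99 and ZNF146 of -0.73. Of 61 ZBTB, ZSCAN and ZKSCAN genes, 30 were lower and 1 higher (median -0.36; 41 lower and 0 higher on the ribosomal scale). ZBTB33, which encodes the methyl-CpG reader Kaiso, had a change of -1.03 (SE 0.09) and ZKSCAN1 of -0.80 (SE 0.07).

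Genes of chromatin, mRNA decay and protein ubiquitination were lower more often than higher, against 22.3% lower and 22.1% higher over all tested genes, and 47.5% and 4.49% on the ribosomal scale. Of 134 chromatin modifiers and remodellers, 61 were lower (45.5%) and 20 higher (median -0.20), and the higher count was 13 without replicate 2 or replicate 3 and 9 without the block. On the ribosomal scale 95 were lower and 3 higher. CREBBP, a histone acetyltransferase, went from 70.0, 62.2 and 74.2 to 34.1, 31.6 and 34.6 CPM (-1.04, SE 0.06), and ARID1A, a BAF complex subunit, from 70.7, 65.3 and 72.3 to 36.7, 31.8 and 32.5 CPM (-1.05, SE 0.06). Both fell in each replicate, with no overlap of the libraries. Of 86 genes of the mRNA decay machinery, 37 were lower and 11 higher (6 higher without replicate 2 or without 2 h replicate 2, and 5 without the block), and 62 and 2 on the ribosomal scale. YTHDF2, a reader of N6-methyladenosine that recruits deadenylases, went from 57.2, 58.4 and 53.3 to 20.4, 16.5 and 20.6 CPM (-1.56, SE 0.08). Messengers of decay factors were thus themselves among those lost, as BTG1 above.

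Of 99 substrate adaptors of ubiquitin ligases, 47 were lower (47.5%) and 11 higher (7 higher without replicate 2, and 31 and 6 without the block), and 63 and 3 on the ribosomal scale. SPSB1, an adaptor that targets the inducible nitric oxide synthase, went from 17.1, 15.4 and 18.9 to 3.97, 4.39 and 4.77 CPM (-1.97, SE 0.13). The libraries of both times did not overlap. Of 104 RING and TRIM genes, 42 were lower and 13 higher (6 higher without replicate 3 and without the block; 65 lower and 0 higher on the ribosomal scale), with the ligases TRIM32 at -1.63 and RNF139 at -1.58. Of 58 deubiquitinases, 23 were lower and 6 higher (40 lower and 0 higher on the ribosomal scale), with USP38 at -1.26 and USP10 at -0.80. Of 96 genes of RNA polymerase II, its general factors and Mediator, 33 were lower and 22 higher (58 lower and 7 higher on the ribosomal scale), and the Mediator subunit MED18 went from 8.91, 7.69 and 9.37 to 1.93, 2.61 and 2.23 CPM (-1.93, SE 0.18). The 2 directions in that list differed by gene. Its share of higher genes, 22.9%, was close to the 22.1% over all genes, and its share of lower genes was 34.4% against 22.3%. On the ribosomal scale 47.5% of all tested genes were lower and 4.49% higher.

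Stress and cell cycle lists split by gene as well. Their counts stand against 22.3% lower and 22.1% higher over all tested genes, and 47.5% and 4.49% on the ribosomal scale. Of 23 genes of the unfolded protein and integrated stress response, 13 were lower and 4 higher (2 higher without replicate 3 and without the block; 18 lower and 0 higher on the ribosomal scale). XBP1, the transcription factor of the unfolded protein response, went from 97.1, 88.5 and 84.6 to 39.9, 27.8 and 29.5 CPM (-1.48, SE 0.07), and SESN2, a stress-inducible inhibitor of mTORC1, had a change of -1.45 (SE 0.16). Of 78 heat shock proteins and co-chaperones, 15 were lower (19.2%) and 20 higher (25.6%), near the 22.3% and 22.1% over all tested genes. On the ribosomal scale 51 were lower and 4 higher. Among those that fell, DNAJB1, a co-chaperone of HSP70, went from 112, 105 and 100.5 to 63.1, 50.6 and 43.6 CPM (-1.02, SE 0.06). BAG5, a nucleotide exchange factor of HSP70, had a change of -1.33 (SE 0.09). Of 58 G2/M and mitosis genes, 25 were lower and 5 higher, 42 and 0 on the ribosomal scale, and 4 and 0 without the replicate block. The higher count was 2 or 3 without replicate numbers 2 or 3, without their 2 h libraries and without any 4 h library. CENPF, a kinetochore protein, went from 139, 112 and 172 to 90.9, 73.1 and 114 CPM (-0.61, SE 0.06), and its call ended without the block (edgeR adjusted p = 0.0935), since its groups overlapped although it fell in each replicate. Of 63 G1/S and DNA replication genes, 21 were lower and 22 higher (32 lower and 6 higher on the ribosomal scale). The lower count was 10 without replicate 3, 13 without 2 h replicate 3 and 5 without the block, and the higher count was 2 without the block. POLD2, a subunit of DNA polymerase delta, went from 99.4, 104 and 117 to 132, 137 and 159 CPM (0.42, SE 0.05), and TK1, thymidine kinase, rose by 0.55 with the block alone (edgeR adjusted p = 0.178 without it).

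Ribosomal, metabolic, matrix and cytoskeletal mRNAs gained share between 2 h and 4 h on the TMM scale. Most of those calls were absent on the ribosomal scale, which holds ribosomal protein mRNAs constant. All tested genes are the measure for these counts, with 22.1% higher and 22.3% lower, and 4.49% and 47.5% on the ribosomal scale. Of 83 cytosolic ribosomal protein genes, 69 were higher and 1 lower (median 0.21), against 44 higher without the block, and 16 higher and 19 lower when the list itself was the reference. RPS19 went from 551, 541 and 543 to 740.3, 749 and 759 CPM, the same step in each replicate (0.46, SE 0.03), and RPS9 rose by 0.46 (SE 0.04), and both remained higher than the list as a whole (0.23 and 0.23 on the ribosomal scale). Processed pseudogenes of ribosomal proteins can share reads with them. Of 81 oxidative phosphorylation genes, 49 were higher and 2 lower, against 10 and 16 on the ribosomal scale and 32 higher with library totals. NDUFA11, of respiratory complex I, went from 54.5, 53.9 and 56.0 to 79.6, 87.0 and 91.4 CPM (0.65, SE 0.06). Of 20 glycolytic genes, 16 were higher and 2 lower, against 4 and 6 on the ribosomal scale, with ALDOA, an aldolase, going from 1330.0, 1100.0 and 1128 to 1722, 1439 and 1507 CPM (0.39, SE 0.03).

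Of 97 extracellular matrix and integrin genes, 58 were higher (59.8%) and 0 lower (median 0.26), against 22.1% and 22.3% of all tested genes. On the ribosomal scale 17 were higher and 11 lower, where 4.49% of all tested genes were higher and 47.5% lower. Without the block 26 were higher. BGN, the proteoglycan biglycan, went from 1148, 1122 and 1218 to 1553, 1503 and 1710.0 CPM (0.45, SE 0.04), and COL4A2, of basement membrane collagen, from 940.5, 1008 and 1112 to 1210.0, 1333 and 1498 CPM (0.40, SE 0.03). Both passed the test on the ribosomal scale too, with 0.22 and 0.17. Of 42 cytoskeletal genes, 30 were higher and 0 lower, against 10 and 15 on the ribosomal scale and 13 higher without the block. FLNA, which cross-links actin, rose by 0.42 (SE 0.03). With the GC-smoothed offset 60 matrix, 31 cytoskeletal, 76 ribosomal protein and 14 glycolytic genes were higher, of 97, 42, 83 and 20 tested. Lower were 1, 3, 1 and 2. Of 64 oxidative phosphorylation genes tested with it, 47 were higher and 1 lower. Over all 11665 genes of that fit, 2732 were higher and 2616 lower.

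Some lists held members that moved in opposite directions. Of 61 translation initiation and elongation factors, 12 were lower (19.7%) and 17 higher (27.9%), near the 22.3% and 22.1% over all genes (10 higher without the block), and 39 and 1 on the ribosomal scale. EIF4B, which stimulates the helicase EIF4A, went from 305, 299.5 and 279 to 244, 229.9 and 195 CPM (-0.40, SE 0.04), whereas EEF1D, of the elongation factor complex, went from 314, 294 and 292 to 406, 413 and 399 CPM (0.44, SE 0.05). Of 20 tRNA synthetases, 2 were lower (10%) and 7 higher (35%), and 17 and 1 on the ribosomal scale. That scale had 47.5% of all tested genes lower and 4.49% higher. RARS fell, from 174, 188 and 156 to 146, 143 and 117 CPM (-0.35, SE 0.05). VARS rose, from 166, 171 and 177 to 236, 219 and 239 CPM (0.43, SE 0.04). Of 28 genes of cholesterol synthesis and uptake, 5 were lower (17.9%) and 13 higher (46.4%), and 14 and 4 on the ribosomal scale. SQLE, squalene epoxidase, had a change of -0.46 and LSS, lanosterol synthase, of 0.42. Both members of each pair passed the edgeR test on every scaling. In each pair the member that rose had the GC-richer transcript. EEF1D, VARS and LSS had 62.8%, 62.6% and 58.3% GC, against 50.1%, 41.4% and 46.5% in EIF4B, RARS and SQLE. The third genes named from these lists were EIF5 (-0.61, 41.6% GC), WARS (0.14, 51.8%) and INSIG1 (-0.69, 46.0%). The part of GC in these opposite changes was not tested.

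**Figure D4:**
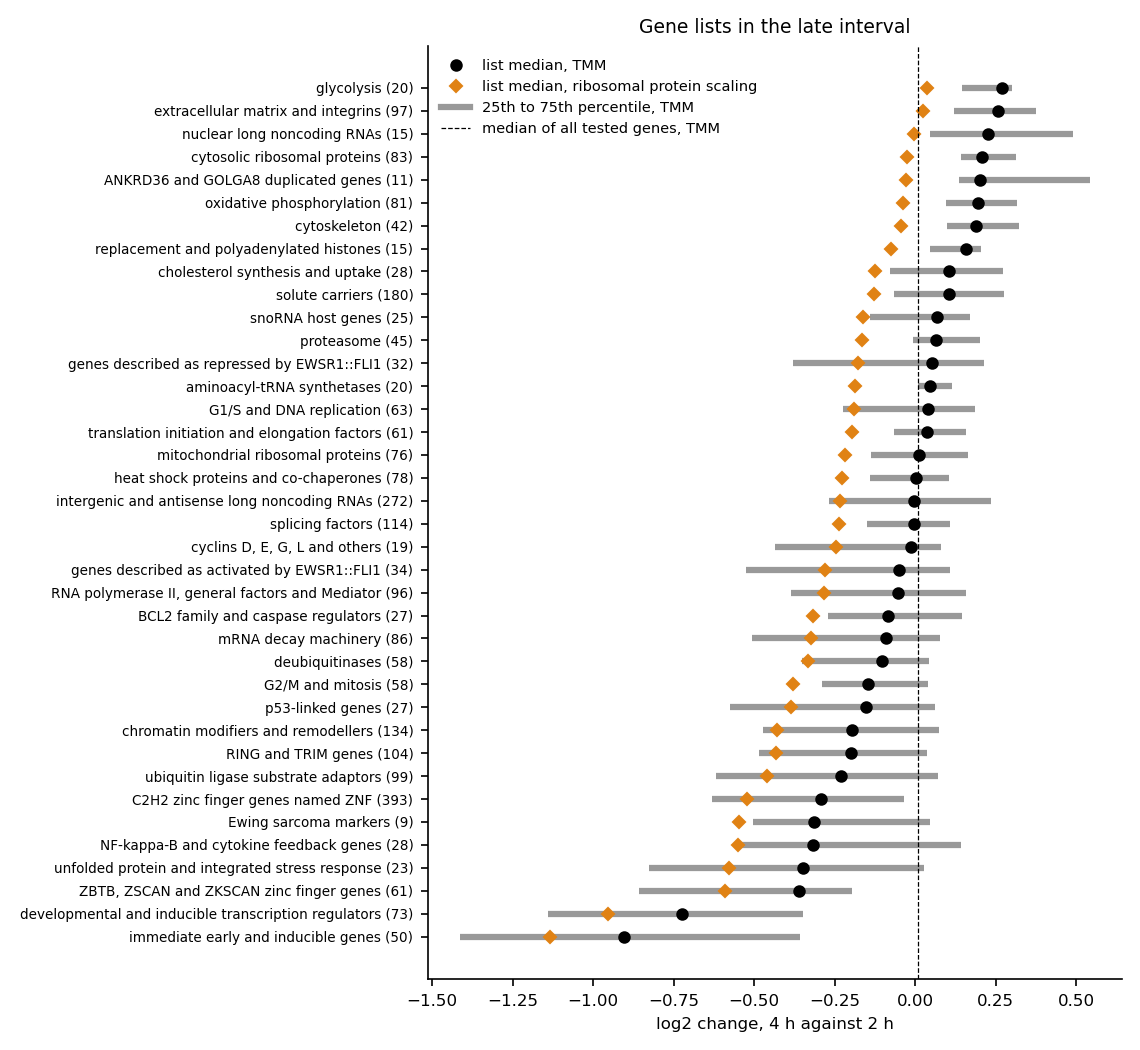
Median log2 change from 2 h to 4 h of each gene list with 9 or more tested genes (black, TMM, with a grey bar from the 25th to the 75th percentile; orange diamonds, scaled to ribosomal protein mRNAs), with the number tested in parentheses and the median of all genes dashed. Immediate early genes have the lowest median (-0.90) and glycolytic genes the highest (0.27), and every orange diamond lies to the left of its black point.

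Long noncoding RNAs moved in both directions. Beside MALAT1 and NEAT1, LINC00657, also named NORAD, a cytoplasmic RNA, went from 194, 212 and 246 to 130.3, 146 and 179 CPM (-0.52, SE 0.05), and the snoRNA host SNHG7 from 17.1, 19.8 and 17.0 to 11.9, 10.98 and 9.65 CPM (-0.73, SE 0.10). KCNQ1OT1, an imprinted antisense RNA, rose by 0.90 (SE 0.15), with a strand setting of the counting that is not given in the sources used here, so that reads of KCNQ1 cannot be told apart. Of the duplicated ANKRD36 genes, ANKRD36C went from 12.3, 12.04 and 14.8 to 22.3, 27.5 and 25.7 CPM (0.95, SE 0.13), ANKRD36 rose by 0.80 and ANKRD36B by 0.83. These copies are near-identical and how reads were split among them is uncertain. The transcripts of ANKRD36C had 40.2% GC, which is in the GC-poorest group.

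To find genes whose behaviour in the late interval differed from that in the early interval of the same length, 0 h to 2 h, the difference of both log2 changes was tested. It was negative for 697 genes (5.46%) and positive for 944 (7.39%). These counts rest on few libraries: they were 160 and 273 without replicate 2, 132 and 161 without replicate 3, 186 and 266 without 2 h replicate 2, and 174 and 258 without 2 h replicate 3. Without 4 h replicate 1 the positive count was 619. They were 29 and 49 without the replicate block, 1323 and 467 on the ribosomal scale, and 348 and 288 with the GC-smoothed offset. In the GC-richest group 21.6% of genes had a positive difference and in the GC-poorest 2.26%, and the 2 h libraries of replicates 2 and 3 have the lowest GC.

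Of the 697 genes with a negative difference, 577 were lower in the late interval, and 269 of these had not been called in the early interval. XBP1 had log2 changes of -0.62 in the early and -1.48 in the late interval, a difference of -0.87 (SE 0.10, edgeR adjusted p = 2.67e-06), and SLC38A2 -0.57 and -1.18, a difference of -0.61 (SE 0.07). EIF4B kept its level up to 2 h, with 298, 294 and 293 CPM at 0 h against the 2 h values above, and had a difference of -0.40 (SE 0.07). RNF139, SLC5A3 and PHF3, a PHD finger protein that binds RNA polymerase II, had differences of -1.07, -0.64 and -0.70. The calls of all 6 held without any library, and of them those of RNF139 and PHF3 also held without the block.

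Of the 944 genes with a positive difference, 307 had been lower in the early interval, 581 were higher in the late interval with no early call, and 56 were higher in both. DUSP6, a cytoplasmic phosphatase of ERK named after its values were seen, stood at 249 ± 9.19, 21.0 ± 3.21 and 12.9 ± 0.673 CPM at 0, 2 and 4 h (SD, n = 3). Its log2 change was -3.56 in the early and -0.70 in the late interval, a difference of 2.87 (SE 0.15, edgeR adjusted p = 2.48e-13), called with and without the block. ZNF526, named in the same way, kept its level after 2 h, from 4.50, 3.74 and 2.61 to 3.51, 3.66 and 2.54 CPM, after an early change of -2.86. MYC, the transcription factor, went from 15.0, 12.5 and 10.4 to 5.33, 4.29 and 3.39 CPM in the late interval (-1.55, SE 0.14) after -2.78 in the early one, and the difference of 1.23 was called with the block (edgeR adjusted p = 0.000289) and not without it (0.193). Of the 393 ZNF genes, 90 had a positive and 12 a negative difference, against 7.39% and 5.46% of all tested genes. In the early interval 302 of the 393 had already been lower, against 19.5% of all tested genes. The median level of the list at 2 h was 5.36 CPM, and the part of low level in these calls was not tested.

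Among genes that were higher in the late interval with no early call, NEAT1 had an early change of -0.08 and a difference of 1.31 (SE 0.17), and RPS19 had 0.05 and 0.41 (SE 0.06), and both calls held without any library and ended without the block (edgeR adjusted p = 0.0574 and 0.0580). RPS19 does not stand for its list: of 83 cytosolic ribosomal protein genes, 55 were already higher in the early interval, against 15.9% of all tested genes. A positive difference was called for 20 of the 83, against 7.39% of all tested genes. AGRN, LAMA5, CHPF and CRIP2 had differences from 0.51 to 0.67 that ended without 2 h replicate 3 (edgeR adjusted p from 0.0727 to 0.117) and with the GC-smoothed offset (0.0802 to 0.788). MALAT1 had already risen in the early interval, by 0.64, and rose further, with a difference of 0.64 (SE 0.12, edgeR adjusted p = 0.000832) that was not called with DESeq2 (adjusted p = 0.0680) or without the block (0.380).

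**Figure D5:**
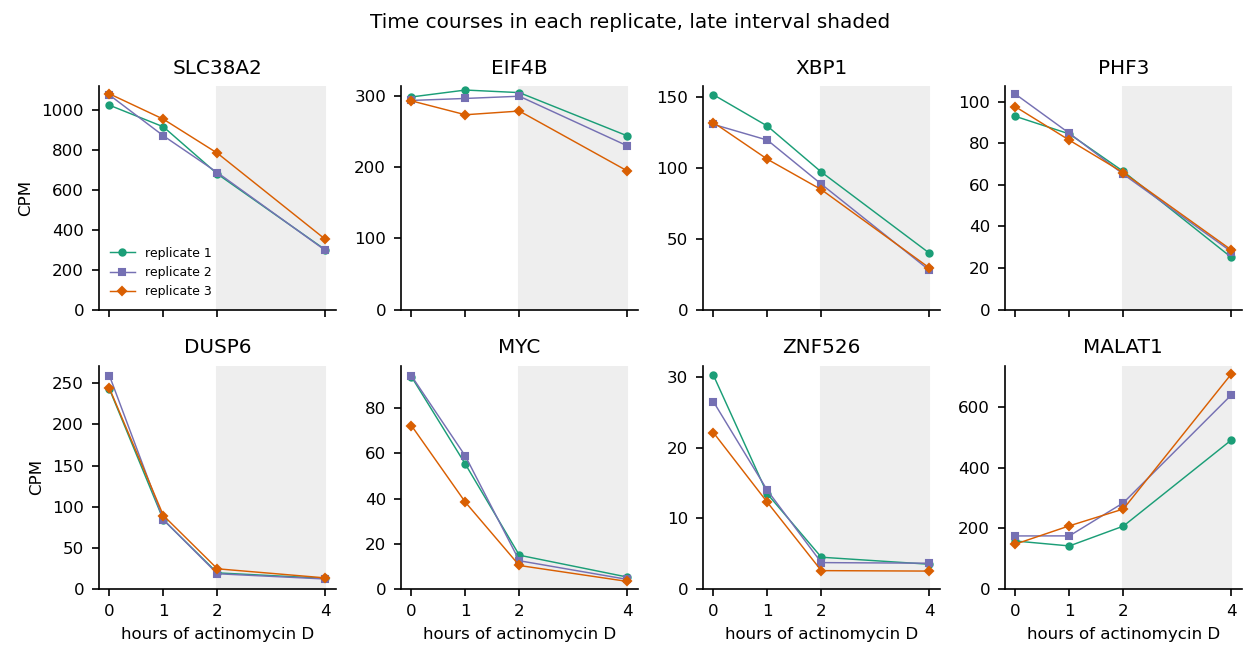
CPM of 8 genes in each replicate at 0, 1, 2 and 4 h of actinomycin D, with the late interval shaded and a linear axis from 0. SLC38A2, EIF4B, XBP1 and PHF3 lose more after 2 h than before on the log scale, DUSP6, MYC and ZNF526 had lost most of their mRNA by 2 h, and MALAT1 climbs to 492, 640.4 and 709.5 CPM.

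FLI1 reads, which include the FLI1 part of the fusion transcript targeted by the hairpin, went from 13.4, 10.9 and 9.08 CPM at 2 h to 8.16, 7.01 and 7.11 CPM at 4 h, a log2 change of -0.58 (SE 0.16, edgeR adjusted p = 0.00371). The 4 h libraries were below those at 2 h, and the call ended without replicate 2 (edgeR adjusted p = 0.0584) and without the block (0.0602). The hairpin was induced in all libraries, so loss through it and other loss cannot be told apart. EWSR1, the other partner, went from 258, 265 and 217 to 312, 314 and 262 CPM (0.26, SE 0.04), and ACTB, the beta-actin gene, from 4969, 4841 and 4141 to 5945, 5678 and 5086 CPM (0.26, SE 0.03), each at 0.03 and not called on the ribosomal scale, and not called without the block. GAPDH rose by 0.30 (SE 0.03), and by 0.07 on the ribosomal scale. Of 34 genes described as activated by EWSR1::FLI1, 11 were lower (32.4%) and 5 higher (14.7%), and 6 and 2 without the block. The lower count was 7 without replicate 3. Of 32 described as repressed, 10 were lower (31.25%) and 14 higher (43.75%), and 5 and 4 without the block. Over all tested genes 22.3% were lower and 22.1% higher. On the ribosomal scale 20 and 18 were lower and 0 and 0 higher. The shares over all tested genes on that scale were 47.5% lower and 4.49% higher. ID2, an inhibitor of helix-loop-helix factors in the first list, went from 12.9, 12.7 and 23.1 to 7.03, 5.33 and 6.68 CPM (-1.35, SE 0.14), and the nuclear receptor gene NR2F2, in the second, from 110.1, 109.6 and 118 to 64.7, 59.8 and 56.9 CPM (-0.90, SE 0.06).

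Library facts that bear on all these values were as follows. The 6 libraries held 9575376 to 10295820 counts, and no replicate pair was identical. The first principal component of all 12 libraries (59.0%) followed time and the second (15.9%) set replicate 3 apart. Of 10 Ewing sarcoma markers, CAV1 and CCND1 were abundant at 2 h and 4 h, with means of 1854 and 512 CPM at 2 h. STEAP1, STEAP2, FLI1 and PRKCB had means of 17.5, 14.3, 11.1 and 8.30 CPM at 2 h. NR0B1, BCL11B and NKX2-2 were low, at means of 3.01, 2.20 and 0.783 CPM at 2 h. These marker levels are relative to library totals without TMM scaling. CD99, a surface marker of this tumour, had no count in any of the 6 libraries, which was not followed up. Of 28 markers of blood, epithelial, liver, endothelial and other cells, 10 were at 0 in all 6, and their summed level was 402 to 592 CPM at 2 h and 470 to 609 CPM at 4 h, nearly all of it KRT18, a keratin. HBB, beta-globin, went from 18.5, 17.9 and 12.9 to 14.8, 8.78 and 8.06 CPM. Its part in the results was not tested.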

How the data were processed

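The authors deposited unnormalized read counts, 1 row per gene symbol. Per the submitters' processing notes, FastQC, STAR and the build hg19 were used, and the counting program, its annotation and its strand setting are not given in the sources used here. Per the labels' protocols, RNA came from Nucleospin columns and libraries from the TruSeq stranded mRNA kit.

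Counts were analysed in R 4.3.3 with edgeR 4.0.16 (filterByExpr, TMM, quasi-likelihood test over all 12 libraries, Benjamini-Hochberg adjustment, threshold 0.05), with time and replicate number in the model. Deviations from the time means correlated at 0.263 to 0.649 between libraries of the same number and at -0.501 to 0.160 between different numbers, so the numbers were taken to pair the libraries, and the labels call them biological replicates. SE is the log2 change divided by the root of the quasi-likelihood F. The test was checked on simulated counts. DESeq2 1.42.0, other scalings and filters, and each library left out were alternatives.

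Named genes had an adjusted p under 0.05, 5 CPM or more on average at the higher time and no overlap between the libraries: the 12 largest falls and rises, and the 6 largest of each at 100 CPM or more at 2 h. Added were the 6 largest changes of rate in each direction, up to 3 genes of smallest adjusted p per gene list, and FLI1, EWSR1, MYC, GAPDH and ACTB. A few genes that the rule picked are not reported here. Members, lists and this rule were chosen with earlier results of these data known, and 3 genes that are no heat shock proteins were dropped from a list after its values were seen. Transcript features came from GENCODE release 29 (GRCh38), matched by symbol for 11665 of 12775 tested genes, and were added after the data were seen. The protein-based features planned were not run.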

Additional observations from a re-analysis of the deposited data

Results flagged for a closer look

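The log2 change from 2 h to 4 h differed from that from 0 h to 2 h, by edgeR's test of the difference itself, for 697 genes with a lower and 944 with a higher late change. The largest negative differences named were those of BBS12 (-1.78), BAMBI (-1.28), ZNF711 (-1.25), SERTAD1 (-1.22) and CCDC12 (-1.22), with edgeR adjusted p from 0.00418 to 0.0401. The calls of all 5 ended without at least 1 library or replicate number. BBS12, a chaperonin-like ciliary gene, was at 20, 22 and 40 counts in replicates 1, 2 and 3 at 2 h and at 5, 3 and 3 at 4 h, and ended without 2 h replicate 3 (edgeR adjusted p = 0.438). ZNF711 was at 50, 58 and 107 counts at 2 h and 30, 20 and 59 at 4 h, and ended without 2 h replicate 2 (0.0710) or 2 h replicate 3 (0.177).

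The largest positive differences were those of C10orf10 (5.18), ZNF14 (3.97), ZNF564 (3.84), the Mediator subunit gene MED26 (3.22), ZNF595 (2.96) and the pseudokinase gene TRIB1 (2.93). C10orf10 had 51, 50 and 104 counts at 0 h, 1, 1 and 2 at 2 h and 1, 0 and 2 at 4 h, so its fitted value is no measure of size. ZNF595 had 65, 83 and 76 counts at 0 h, 15, 13 and 13 at 2 h and 18, 26 and 14 at 4 h, and its late change was not called (log2 0.62, edgeR adjusted p = 0.0793). MED26 had 97, 96 and 90 counts at 0 h, 11, 9 and 6 at 2 h and 6, 8 and 8 at 4 h. TRIB1 had 216, 186 and 193 counts at 0 h, 23, 21 and 6 at 2 h and 13, 10 and 8 at 4 h. The calls of MED26, ZNF595 and TRIB1 held without each library, and those of C10orf10, ZNF14 and ZNF564 ended without 2 h replicate 3 (edgeR adjusted p from 0.0620 to 0.110).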

How the results depend on the processing

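For 4 h against 2 h, the fit without a replicate block gave 1817 lower, 1302 higher and 20 over 2-fold higher. Library totals gave 1674 higher and 20 over 2-fold higher. Ribosomal protein scaling gave 6064 lower, 574 higher, 792 over 2-fold lower and 14 over 2-fold higher. Over 2-fold higher were 10 with DESeq2, 2 with 5 CPM or more on average and 13 with the GC-smoothed offset, in place of 33. For the change of rate, the fit without a replicate block gave 29 lower and 49 higher, ribosomal scaling 1323 and 467, the GC-smoothed offset 348 and 288, and DESeq2 414 higher. Leaving out a replicate or library gave 2289 to 2745 lower, 1972 to 2499 higher, 423 to 469 over 2-fold lower and 32 to 55 over 2-fold higher, and for the change of rate 132 to 757 lower and 161 to 1005 higher. The cause was not tested.

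Of 145 named late changes, 142 kept their direction and call with DESeq2 or with library totals, 127 with ribosomal scaling and all but 22 without the block. On the ribosomal scale the sign turned for WARS (-0.0915), PSMD2 (-0.0199), GNB2L1 (-0.00541), LRRC75A-AS1 (-0.0149), H2AFY (-0.0244), HIST1H2BK (-0.0268), FN1 (-0.00838), KRT18 (-0.0281) and CCND1 (-0.0420), all small rises on the TMM scale. With the GC-smoothed offset it turned for HIST1H2BK (-0.0225) and KRT18 (-0.00509), for the change of rate of GAPDH (-0.0426), CYC1 (-0.0276), ENO1 (-0.0286) and KRT18 (-0.0101), and for the correlation with GC (-0.00973), which the offset removes by construction. Of 2143 genes at 1 to 5 CPM at 2 h, 12.5% were lower and 5.83% higher, against 28.8% and 25% of 4955 at 20 to 100 CPM, and the part of depth in this difference was not tested. With 3 libraries per time, the p-values of the main fit measure the spread left after the replicate block, over the 12 libraries of 1 line. Differences in level between replicates that are shared by all times are taken out by the block.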
